A study of Mus musculus with 32 samples.

Results

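Transcript levels of 10 genes of the beta-catenin pathway were followed in E14 mouse embryonic stem cells before and after they were released from inhibition of the kinase GSK3. The genes were chosen by name, as 6 genes known to be switched on by beta-catenin (Axin2, Sp5, Tnfrsf19, Nkd1, Rnf43 and Znrf3) and the 4 genes of the TCF/LEF family (Lef1, Tcf7, Tcf7l1 and Tcf7l2). These 10 genes and the pathway lists used further on were chosen with earlier results of these data known. Shares called among them, set beside those of all tested genes, are therefore a description and no test of the set. All 10 have a row among the 31053 genes of the count files, and all 10 passed the filter on low counts. The cells were grown in N2B27 medium with 2i, which is 3 uM CHIR99021 (a GSK3 inhibitor) and 1 uM PD0325901 (a MEK inhibitor), or with 2iL, which adds the cytokine LIF. All of these were then replaced with plain N2B27. Cells from 2i were collected 0, 12, 24, 36, 48, 60, 72 and 84 h later and those from 2iL 0, 24, 36, 48, 60, 72, 84 and 96 h later, with 2 libraries in each of the 16 groups. Both courses thus start with GSK3 and MEK inhibited, and the inhibitors (and LIF in the 2iL course) were taken away together, so the part of each agent in a change cannot be told apart.

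Beta-catenin is the transcriptional arm of the canonical Wnt pathway. Without a Wnt signal, a destruction complex that contains APC, AXIN1 or AXIN2, and GSK3 marks it for degradation. When GSK3 is blocked, beta-catenin builds up and binds TCF/LEF proteins on DNA, where TCF7L1 acts mainly as a repressor and LEF1 and TCF7 mainly as activators. In mouse embryonic stem cells, relief of TCF7L1 repression at naive pluripotency genes is a known route by which CHIR99021 supports self-renewal. Several targets are themselves brakes. AXIN2 rebuilds the destruction complex, NKD1 antagonises Dishevelled, and RNF43 and ZNRF3 are ubiquitin ligases that clear Frizzled receptors from the cell surface. SP5 is a transcription factor, and TNFRSF19 is a receptor of the tumour necrosis factor receptor superfamily.

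The upstream DNA of the 3 targets that fell first is printed because they moved together and differ in the TCF/LEF core motif. The motif was searched as CTTTGAT and CTTTGAA on both strands of the 250 bases before each RefSeq transcript start (mm10, GRCm38.p6). Capitals mark a match, and each sequence runs 5′ to 3′ on the strand of its gene.
Axin2, plus strand, chr11:108920099-108920348: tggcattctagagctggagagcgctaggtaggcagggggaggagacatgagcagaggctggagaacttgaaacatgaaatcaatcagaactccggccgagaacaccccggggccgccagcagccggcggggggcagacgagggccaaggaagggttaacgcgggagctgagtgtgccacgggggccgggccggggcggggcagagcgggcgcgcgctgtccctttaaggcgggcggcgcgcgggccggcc
Sp5, plus strand, chr2:70474673-70474922: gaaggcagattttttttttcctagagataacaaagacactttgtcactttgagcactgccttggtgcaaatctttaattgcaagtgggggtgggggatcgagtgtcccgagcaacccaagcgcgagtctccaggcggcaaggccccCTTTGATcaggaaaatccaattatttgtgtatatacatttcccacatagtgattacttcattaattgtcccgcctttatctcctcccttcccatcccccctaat
Tnfrsf19, minus strand, chr14:61037988-61038237: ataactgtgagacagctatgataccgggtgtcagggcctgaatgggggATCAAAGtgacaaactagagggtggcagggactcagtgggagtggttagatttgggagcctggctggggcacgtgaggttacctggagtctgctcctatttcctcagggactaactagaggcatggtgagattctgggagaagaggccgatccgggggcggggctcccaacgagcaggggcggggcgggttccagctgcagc
In Sp5 the motif CTTTGAT lies 98 to 104 bases before the start, on the strand of the gene. In Tnfrsf19 it lies 196 to 202 bases before the start of 1 of its 2 listed starts, on the opposite strand, so the printed strand reads ATCAAAG. The Axin2 window holds neither motif. Of the 9 genes with a promoter entry, 2 held a match, against 8.63% of all 27025 genes. By promoter it was 2 of 16, against 7.48% of all 32851 promoters of the same length. These matches are a description of the letters in a short window and do not show binding.

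Of the 32 libraries, 31 held 1122648 to 3438514 counts (median 1980949), and a count of 3 in them equals 0.872 to 2.67 CPM (counts scaled to the library total) before normalisation. Every level below is in TMM-normalised CPM. The library 2iL 36 h replicate 2 held 7298 counts and is left out throughout, so 2iL 36 h is represented by 1 library. Replicate pairs correlated at 0.930 to 0.989 over log2 CPM, and the pairs of 2iL 48, 84 and 96 h (0.932, 0.930 and 0.932) were the least alike. In the first group after withdrawal of each course the 10 most abundant genes took a larger share of counts (35.5% and 43.5% at 2i 12 h, 30.6% and 30.5% at 2iL 24 h) than in any other library used (17.1% to 29.7%). All 7 pluripotency markers had counts in every group. Their summed level went from 1636 to 1759 CPM at 2i 0 h to 446 to 448 CPM at 84 h. In the 2iL course it went from 2091 to 2228 CPM at 0 h to 512 to 552 CPM at 96 h. The 5 formative epiblast markers summed to 592 to 596 CPM at 2i 0 h, 3207 to 3243 at 36 h and 235 to 272 at 84 h. After 2iL they summed to 121 to 132 CPM at 0 h, 3312 to 3367 at 60 h and 1020 to 1191 at 96 h. The summed level of the 6 primitive streak markers in the 2i course was 21.98 to 22.24 CPM at 0 h, 3.43 to 3.92 at 12 h and 46.9 to 49.1 at 72 h. In the 2iL course it was 15.4 to 23.03 CPM at 0 h and at most 11.5 CPM later. Early neural markers (5 genes) summed to 567 to 642 CPM at 2i 84 h and 194 to 251 CPM at 2iL 96 h. The 5 primitive endoderm markers stayed at or under 11.7 CPM in sum and the 5 fibroblast markers at or under 27.4 CPM. The 5 trophectoderm markers were highest in sum at 0 h (169 to 177 CPM in 2iL, 215 to 235 CPM in 2i). Over both 2i libraries at 0 h, Cdx2 had 46 counts, Gata3 13, Elf5 5 and Hand1 none, so most of that sum was Tfap2c. At 2i 84 h edgeR called Tfap2c lower than at 0 h and Cdx2 higher. At 2iL 96 h it called both lower and Gata3 higher. The labels do not say that replicates are separate cultures, and the p-values therefore cover nothing but the spread between these libraries, which may be technical.

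Before withdrawal, Lef1 was higher in 2i than in 2iL, and Tcf7l2 and Sp5 were lower. Lef1 (chr3:131110471-131224356, plus strand, mm10) stood at 65.9 and 62.6 CPM in the 2 libraries of 2i and at 13.7 and 12.4 CPM in those of 2iL. The groups were far apart, with a log2 fold change of 2.29 ± 0.23 (SE; edgeR quasi-likelihood test, Benjamini-Hochberg adjusted p = 1.76e-08). Tcf7l2 (chr19:55741820-55933654, plus strand) went the other way, at 7.94 and 13.2 CPM in 2i and 28.7 and 27.9 CPM in 2iL (log2 -1.46 ± 0.32, edgeR adjusted p = 0.00264). Sp5 (chr2:70474923-70477729, plus strand) stood at 28.2 and 28.02 CPM in 2i and 59.1 and 53.2 CPM in 2iL (log2 -0.996 ± 0.30, edgeR adjusted p = 0.0354). Axin2 (chr11:108920349-108950783, plus strand), at 35.3 and 29.7 CPM in 2i and 33.7 and 22.6 CPM in 2iL, overlapped between the media (log2 0.21 ± 0.35, edgeR adjusted p = 0.835). Of the 10 genes, 2 were called lower and 1 higher, against 4.24% and 3.75% of all 12556 tested genes. Their median log2 fold change was 0.19, and that of all tested genes 0.01. The Sp5 call ended when any of the 4 libraries at 0 h was left out, with log2 fold changes of -0.92 to -1.10. Fewer of all tested genes were called in those fits too. It also ended under DESeq2 (adjusted p = 0.279). The Tcf7l2 call ended without 2i 0 h replicate 1 (log2 -1.11, edgeR adjusted p = 0.138).

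At the first time sampled after withdrawal, Axin2, Sp5 and Tnfrsf19 fell in both courses. In the 2i course Axin2 went from 35.3 and 29.7 CPM to 6.86 and 18.6 CPM at 12 h, with no overlap (log2 -1.44 ± 0.43, edgeR adjusted p = 0.0257). Sp5 went from 28.2 and 28.02 CPM to 0.686 and 3.92 CPM (log2 -3.74 ± 0.53, edgeR adjusted p = 1.61e-05). Tnfrsf19 (chr14:60963875-61046490, minus strand) went from 28.2 and 31.9 CPM to 13.7 and 12.7 CPM (log2 -1.17 ± 0.29, edgeR adjusted p = 0.00725). These 3 of 10 genes compare with 5.37% of tested genes called lower, and the 1 gene that rose, Tcf7l2 (22.6 and 29.4 CPM at 12 h, log2 1.31 ± 0.35, edgeR adjusted p = 0.0133), with 5.43% called higher. The median log2 fold change was -0.52 for the 10 genes and -0.02 for all tested genes. In bulk RNA, fewer cells that express a gene and less RNA per cell cannot be told apart. Time in culture also goes with the hours after withdrawal and cannot be told apart from it.

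The size of the fall at 12 h rested on which library was used. The 12 h libraries were uneven, and 2i 12 h replicate 2 held more Axin2 and Sp5 than its partner. Without 2i 12 h replicate 1, Axin2 was at log2 -0.80 (edgeR adjusted p = 0.357) and Sp5 at -2.82. Without 2i 12 h replicate 2, Axin2 was at -2.24 and Sp5, with 1 count left at 12 h, at -5.23, both called. The Axin2 call also ended without 2i 0 h replicate 1 (edgeR adjusted p = 0.154), without 2i 0 h replicate 2 (0.0536) and under DESeq2 (0.105). The Tnfrsf19 call ended without 2i 0 h replicate 2, 2i 12 h replicate 1 or 2i 12 h replicate 2, with log2 fold changes of -1.08, -1.22 and -1.12. Fewer of all tested genes were called in those fits too. The Tcf7l2 call ended without 2i 0 h replicate 1 (0.219) or 2i 12 h replicate 2 (0.121).

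In the 2iL course, sampled first at 24 h, the same 3 genes were called lower. Axin2 went from 33.7 and 22.6 CPM to 5.41 and 5.86 CPM (log2 -2.32 ± 0.50, edgeR adjusted p = 0.0019). Tnfrsf19 went from 22.9 and 17.3 CPM to 5.41 and 3.91 CPM (log2 -2.07 ± 0.38, edgeR adjusted p = 0.000261). For Sp5, 262 counts at 0 h became 2 counts at 24 h, a ratio of 65.1 with a 95% counting interval of 17.9 to 541. These 3 calls held without any single library of the groups compared. Lef1 rose from 13.7 and 12.4 CPM to 27.8 and 26.4 CPM (log2 1.05 ± 0.27, edgeR adjusted p = 0.0097). Tcf7l1 (chr6:72626378-72789254, minus strand) rose from 189 and 193 CPM to 250 and 316 CPM (log2 0.56 ± 0.17, edgeR adjusted p = 0.0302). The background was 5.92% of tested genes called lower and 5.65% called higher. The median log2 fold change was -0.66 for the 10 genes and -0.03 for all tested genes.

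Both rises at 2iL 24 h were less firm than the falls. The Lef1 call ended without 2iL 0 h replicate 2 (edgeR adjusted p = 0.0940) or 2iL 24 h replicate 1 (0.0994). The Tcf7l1 call ended without 2iL 0 h replicate 1 (0.156), 2iL 0 h replicate 2 (0.152) or 2iL 24 h replicate 2 (log2 0.39, 0.306), in a fit with no filter on low counts (0.0821), and when the 2iL libraries were fitted by themselves (0.101). The 10 most abundant genes took 30.5% to 43.5% of counts in the 12 h and 24 h libraries of these comparisons, and the part of that share in the changes was not tested.

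At 24 h, a time that both courses share, the same 3 genes were lower in the 2i course too. Axin2 stood at 5.88 and 3.58 CPM (log2 -2.81 ± 0.44 against 0 h, edgeR adjusted p = 1.61e-05) and Tnfrsf19 at 7.84 and 10.02 CPM (log2 -1.72 ± 0.27, edgeR adjusted p = 2.03e-05). Sp5 had 3 counts against 122 at 0 h, a ratio of 45.3 (95% counting interval 15.1 to 223). The difference between the courses, the 2iL change minus the 2i change, was 0.50 ± 0.73 for Axin2, -0.35 ± 0.49 for Tnfrsf19 and -0.02 ± 0.38 for Lef1 (log2 ± SE). For none of the 10 genes did edgeR call that difference, while 1.29% of all tested genes were called lower and 1.79% higher. At an unadjusted p under 0.05 it was 1 lower and 1 higher (Tcf7l2 and Tcf7l1), and DESeq2 called 0. In a fit without 4 libraries that an earlier analysis of these files found to stand apart from their partners (replicate 2 of 2i 12 h and of 2iL 84 h, and replicate 1 of 2iL 48 h and of 2iL 96 h), edgeR called both of those (Tcf7l1 log2 0.62, adjusted p = 0.0383; Tcf7l2 log2 -1.31, adjusted p = 0.0209). These intervals are wide, so the test does not show that the courses fell alike.

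After the fall, the group means of Axin2 were higher again from 48 h on in the 2i course, and each library of the later 2iL course was under 10 CPM. Axin2 was lowest in the 2i course at 36 h (1.15 and 3.68 CPM). It was then 12.9 and 4.22 CPM at 48 h, 18.2 and 15.01 CPM at 60 h, 25.2 and 13.4 CPM at 72 h and 15.2 and 10.2 CPM at 84 h. With 2iL as the start, Axin2 was at 5.77 CPM after 36 h, then 2.31 and 2.00 CPM at 48 h, 2.63 and 2.56 CPM at 60 h and 1.22 and 3.59 CPM at 72 h. It ended at 7.82 and 5.39 CPM at 84 h and 3.25 and 5.83 CPM at 96 h. Both 0 h groups had the highest group means, followed by 2i 72 h and 2i 60 h. In that order 14 of 15 neighbouring groups overlapped, and the 1 gap lay between 2iL 96 h and 2iL 60 h.

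Sp5 was not counted at all at 2i 36 h, which against 122 counts at 0 h is at least 28.98-fold lower (bound at 3 counts over the group). It was at 1.29 and 1.88 CPM at 48 h, 12.1 and 7.004 CPM at 60 h, 11.1 and 11.9 CPM at 72 h and 10.1 and 12.3 CPM at 84 h. After 2iL, Sp5 had 0 to 4 counts a library from 24 to 84 h, and its count of 0 at 60 h is at least 86.4-fold under 0 h. Only at 96 h did both 2iL libraries exceed 3 counts, with 6 and 9 (3.90 and 3.50 CPM).

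In the 2i course Tnfrsf19 passed its starting level. It stood at 8.08 and 13.2 CPM at 36 h, 25.8 and 29.1 CPM at 48 h, 51.6 and 60.0 CPM at 60 h, 65.1 and 60.3 CPM at 72 h and 46.7 and 47.2 CPM at 84 h. At 72 h it was above 0 h by log2 1.07 ± 0.23 (edgeR adjusted p = 0.000643). After 2iL it stayed between 6.54 and 13.5 CPM from 36 to 72 h, reached 23.4 and 14.005 CPM at 84 h and ended at 11.7 and 13.6 CPM. The step of the 2i course from 36 to 48 h was tested after the levels had been seen. Tnfrsf19 was the 1 gene called higher there (log2 1.40 ± 0.30, edgeR adjusted p = 0.00731, with 0.828% of tested genes higher), and the call ended without 2i 36 h replicate 1 (0.228) or 2i 48 h replicate 2 (0.116).

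Nkd1 (chr8:88521354-88594884, plus strand) was scarcely counted while GSK3 was inhibited. It had 3 counts over both 2i libraries at 0 h and 2 over both 2iL libraries. In the 2i course it had 0 counts at 12 h and reached 13.9 and 10.5 CPM at 60 h, 20.3 and 15.6 CPM at 72 h and 8.84 and 13.9 CPM at 84 h. At 72 h it was 26.3 times its 0 h level (95% counting interval 8.52 to 131). Its fitted log2 change there was 4.57, and 3.98 and 5.30 without 2i 0 h replicate 1 and 2i 0 h replicate 2. Nkd1 could pass the filter on low counts through late groups in which it is high, so this rise is a description. After 2iL, Nkd1 had at most 5 counts a library until 72 h, 4 and 8 counts at 84 h and 6 and 10 counts at 96 h (3.90 and 3.89 CPM).

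Rnf43 (chr11:87662722-87735539, plus strand) was counted 17 times at 2i 0 h and 13 times at 2iL 0 h, over both libraries. It had 1 count at 2i 36 h and 0 at 2iL 24 h, and was highest at 2i 72 h (7.37 and 10.4 CPM) and 2iL 96 h (7.14 and 5.45 CPM). Znrf3 (chr11:5276324-5444847, minus strand), its close relative, stayed at 6.10 to 11.4 CPM in 14 of the 16 libraries of the 2i course. The exceptions were both libraries of 12 h, which disagreed, at 17.2 and 1.96 CPM. The joint test over the 7 later times gave an edgeR adjusted p of 0.975 for Znrf3 in the 2i course. After 2iL, Znrf3 was called lower than 0 h at 48, 84 and 96 h, at 3.25 to 5.06 CPM against 12.5 and 9.30 CPM. Each of these calls ended without 2iL 0 h replicate 1 (edgeR adjusted p = 0.152 to 0.171) and under DESeq2 (adjusted p = 0.0599 to 0.105).

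**Figure D1:**
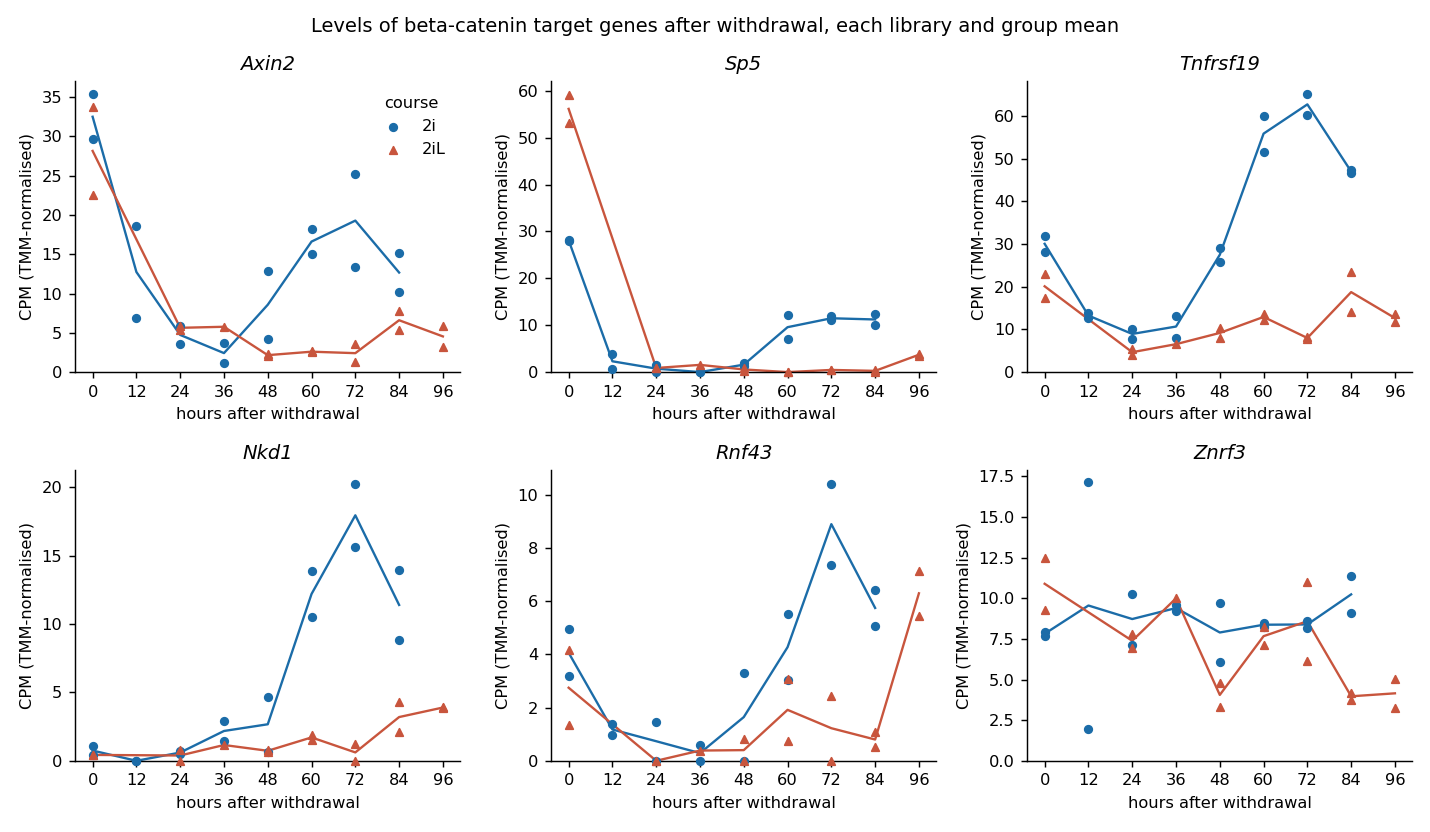
Levels of 6 beta-catenin target genes in TMM-normalised CPM (linear vertical axes) against hours after withdrawal, with a point for each library and a line through the group means, for the 2i course (circles) and the 2iL course (triangles). Axin2, Sp5 and Tnfrsf19 drop by 24 h in both courses, and in the 2i course all but Znrf3 are higher at 60 to 72 h than at 24 h.

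Over the later 2i course, 84 h against 24 h, 6 of the 10 genes were called higher and 2 lower, where 22.1% and 20.1% of all tested genes were. Nkd1 and Rnf43, among those called higher, could pass the filter on low counts through late groups in which they are high. The count of genes called higher is therefore a description. The median log2 fold change of the 10 genes was 1.21, against 0.03 over all tested genes. Axin2 (log2 1.44 ± 0.50, edgeR adjusted p = 0.0222) and Tnfrsf19 (2.37 ± 0.27, 2.64e-08) rose, as did Tcf7l2 (0.98 ± 0.26, 0.00293). For Sp5, 39 counts at 84 h stood against 3 at 24 h, a ratio of 18.2 with a 95% counting interval of 5.79 to 92.2. Nkd1 had 40 counts against 3 (ratio 18.7, interval 5.95 to 94.5) and Rnf43 20 against 3 (ratio 9.35, interval 2.77 to 49.1). The 2 genes called lower were Lef1 (log2 -1.21 ± 0.19, edgeR adjusted p = 7.68e-06) and Tcf7l1 (-0.998 ± 0.18, 4.75e-05). At 84 h Axin2 and Sp5 were under 0 h (Axin2 log2 -1.38 ± 0.40, edgeR adjusted p = 0.00773; Sp5 -1.31 ± 0.36, 0.00555). Axin2 was not called under 0 h at 60 h (log2 -0.97 ± 0.37, edgeR adjusted p = 0.0548) or at 72 h (-0.74 ± 0.38, 0.156). At 60 h it was called with no filter on low counts (0.0241) and when the 2i libraries were fitted by themselves (0.0182).

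Some of these calls ended when 1 library was left out, which leaves 1 library in its group. Fewer of all tested genes were called in those fits too. Axin2 was at log2 1.11 without 2i 24 h replicate 2 (edgeR adjusted p = 0.181) and 1.17 without 2i 84 h replicate 1 (0.156). Rnf43 lost its call without 2i 24 h replicate 2 (0.200) or 2i 84 h replicate 2 (0.0899). All 3 counts of Sp5 and of Rnf43 at 24 h came from replicate 1, so their fitted changes were 7.49 and 6.53 without it and 2.91 and 1.95 without replicate 2. The call of Axin2 under 0 h at 84 h ended without 2i 0 h replicate 1 (0.0725), 2i 84 h replicate 2 (0.123) and under DESeq2 (0.0672), and that of Sp5 without 2i 84 h replicate 1 (0.0651) and under DESeq2 (0.0732). The summed primitive streak markers were higher at 84 h (27.8 to 30.04 CPM) than at 24 h (6.08 to 9.80 CPM), and early neural markers were too (567 to 642 against 22.1 to 24.0 CPM). The part of these markers in the return was not tested. T is in the streak sum and is also listed as a beta-catenin target, with 2 counts at 2i 24 h and 59 at 84 h. The streak sum is thus not separate from the targets. Of the uniquely aligned reads, 53.6% and 55.4% lay outside genes at 2i 84 h and 33.3% and 24.6% at 24 h, and the part of that shift was not tested either.

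In the 2iL course fewer of the 10 genes passed the test late. At 96 h against 24 h, 3 genes were called higher, Tnfrsf19, Nkd1 and Rnf43, and 1 lower, Tcf7l1, where 20.5% and 20.1% of tested genes were. Since Nkd1 and Rnf43 could pass the filter through late groups in which they are high, the count of genes called higher is a description. The median log2 fold change was 0.37 for the 10 genes and 0.03 for all tested genes. Tnfrsf19 rose by log2 1.42 ± 0.41 (edgeR adjusted p = 0.00601). Nkd1 had 16 counts against 1 (ratio 9.02, 95% counting interval 1.40 to 378), and Rnf43 25 against 0, at least 4.70-fold higher. Tcf7l1 fell by 1.006 on the log2 scale (SE 0.18, edgeR adjusted p = 3.77e-05). Axin2 did not pass the test (log2 -0.23 ± 0.65, edgeR adjusted p = 0.804), nor did Sp5, with 15 counts against 2 (ratio 4.23, interval 0.983 to 38.1). At 84 h against 24 h, the hours that the 2i course offers too, 2 genes were called higher, Lef1 (log2 2.03 ± 0.23) and Tnfrsf19 (1.97 ± 0.39), and Tcf7l1 was called lower (-0.96 ± 0.18), against 15.9% and 14.7% of tested genes.

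The later 2iL calls rest on few counts at 24 h, where the libraries held 1470518 and 1122648 counts. The Nkd1 call at 96 h ended without any of the 4 libraries compared (edgeR adjusted p = 0.0549 to 0.180) and under DESeq2 (0.100). Leaving out replicate 1 of 2iL 24 h gave a fitted log2 change of 6.01, and leaving out replicate 2 gave 2.25. The Rnf43 call ended without 2iL 24 h replicate 1 (0.0655) or 2iL 24 h replicate 2 (0.0535), and the Tnfrsf19 call without 2iL 24 h replicate 2 (log2 1.23, 0.0600). Lef1, at log2 0.44 ± 0.24 with all libraries, was called higher without 2iL 96 h replicate 2 (0.72, 0.0414). Summed primitive streak markers were 5.45 to 7.14 CPM at 2iL 96 h and 1.95 to 5.41 CPM at 24 h, and early neural markers 194 to 251 and 34.2 to 38.7 CPM; their part in these changes was not tested.

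**Figure D2:**
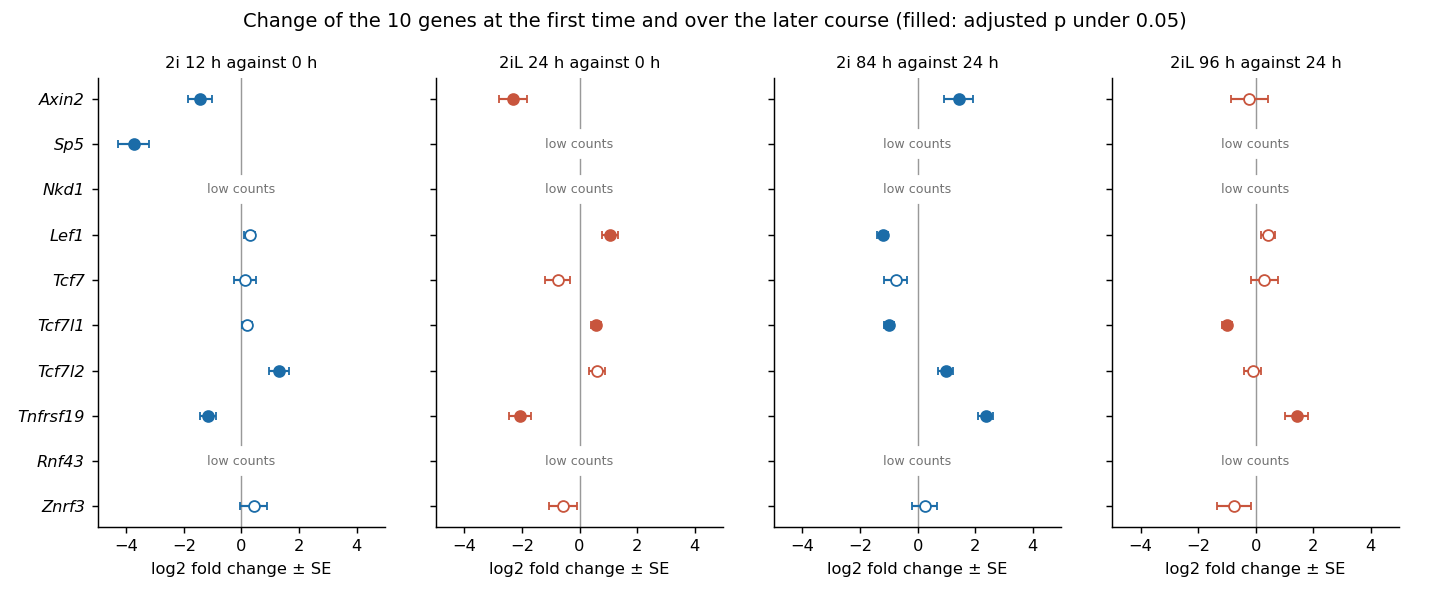
Log2 fold change ± SE of the 10 genes in 4 comparisons (horizontal axis; blue for the 2i course, red for the 2iL course), with filled points for an edgeR adjusted p under 0.05 and "low counts" where a group held 3 counts or fewer. Axin2 and Tnfrsf19 are lower at the first time in both courses and Tnfrsf19 is higher at the end of both.

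Of the TCF/LEF genes, Lef1 and Tcf7l1 were called in the joint tests of both courses and Tcf7l2 in that of the 2i course. Lef1, which encodes an activating partner of beta-catenin and is a known target itself, rose while Axin2, Sp5 and Tnfrsf19 were low. In the 2i course it stood at 78.2 and 78.4 CPM at 12 h, 134 and 137 CPM at 24 h and 166 and 171 CPM at 36 h. It then declined through 137 and 131 CPM at 48 h, 116 and 102 CPM at 60 h and 59.6 and 68.5 CPM at 72 h to 50.5 and 66.0 CPM at 84 h. The peak at 36 h was above 0 h by log2 1.39 ± 0.19 (edgeR adjusted p = 1.53e-06), and the groups at 72 and 84 h overlapped 0 h.

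In the 2iL course Lef1 started lower and had its highest group mean at 48 h. After 36 h it was at 81.5 CPM, then 177 and 125 CPM at 48 h, 156 and 135 CPM at 60 h and 109 and 118 CPM at 72 h. It was at 96.9 and 125 CPM at 84 h and 44.8 and 30.3 CPM at 96 h. At 48 h it was above 0 h by log2 3.53 ± 0.22 (edgeR adjusted p = 1.57e-13). The 5 highest group means of Lef1, 2i 24, 36 and 48 h and 2iL 48 and 60 h, overlapped from each to the next.

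Tcf7l1, the repressor of naive genes, declined in the 2i course. It stood at 225 and 207 CPM at 0 h, 252 and 236 CPM at 12 h and 178 and 214 CPM at 24 h, then 103 and 131 CPM at 60 h, 86.0 and 99.0 CPM at 72 h and 98.5 and 98.2 CPM at 84 h. At 84 h it was under 0 h by log2 -1.14 ± 0.18 (edgeR adjusted p = 9.15e-06). After 2iL the level stayed between 154 and 202 CPM from 36 to 72 h and ended at 119 and 161 CPM at 96 h. That end point was called lower than 0 h (log2 -0.44 ± 0.17, edgeR adjusted p = 0.0434), but with RLE size factors it was at -0.36 (adjusted p = 0.0985) and without 2iL 96 h replicate 1 at -0.23 (0.428). The call also ended without 2iL 0 h replicate 1 (0.109) or 2iL 0 h replicate 2 (0.157), under DESeq2 (0.136), and without the 4 libraries that stand apart (-0.22, 0.318).

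Tcf7l2, which can activate or repress, climbed in the 2i course from its lowest group mean. It went from 7.94 and 13.2 CPM at 0 h to 33.3 and 39.0 CPM at 24 h, 47.2 and 42.7 CPM at 48 h and 76.4 and 67.0 CPM at 84 h. The change from 0 to 84 h was log2 2.79 ± 0.30 (edgeR adjusted p = 1.41e-08). After 2iL it lay between 21.6 and 55.7 CPM at every time, and the joint test over 7 times gave an edgeR adjusted p of 0.1298. Tcf7 (chr11:52252371-52283014, minus strand) lay between 6.14 and 17.9 CPM in all libraries used, and its joint tests gave 0.199 in the 2i course and 0.339 in the 2iL course. An antisense gene, A630014C17Rik, overlaps Tcf7 and had 237 counts in all against 697 for Tcf7. Whether counting used the strand is not given in the sources used here, so the values of Tcf7 are uncertain. Genes that overlap Axin2, Lef1, Tcf7l1 and Tnfrsf19 held 0 to 23 counts each.

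**Figure D3:**
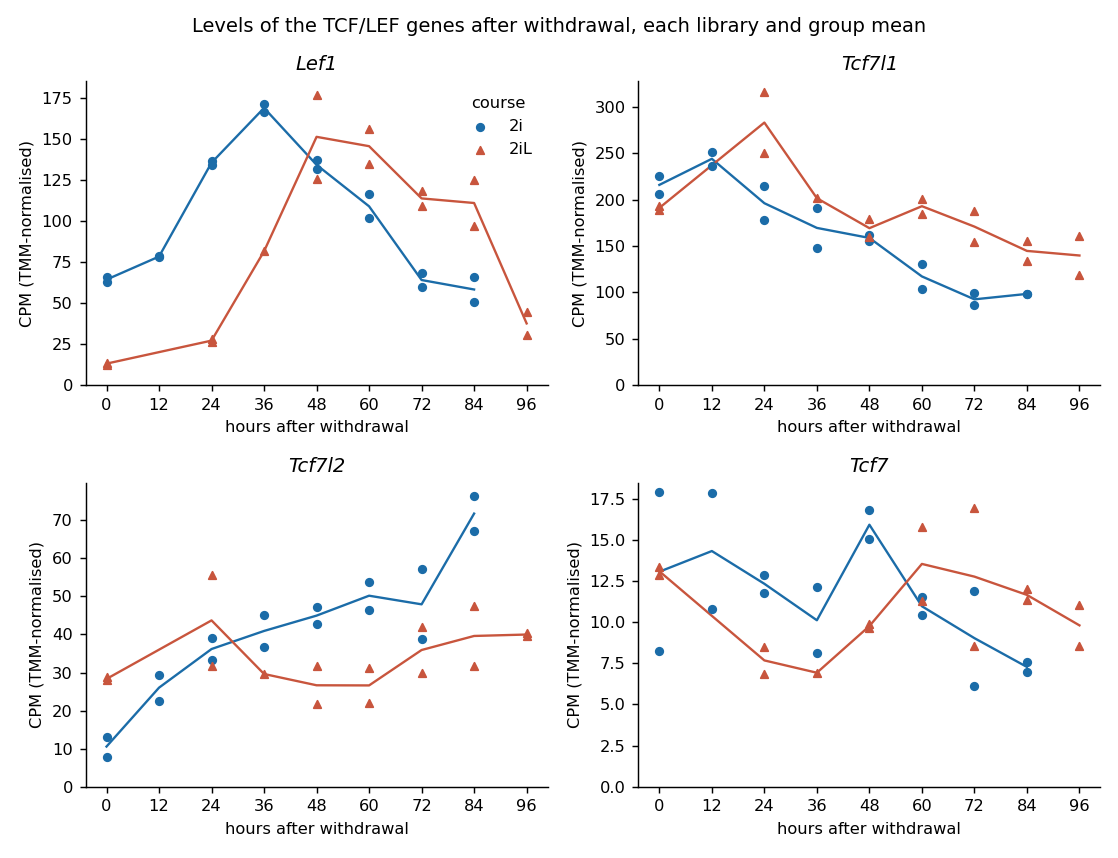
Levels of the 4 TCF/LEF genes in TMM-normalised CPM (linear vertical axes) against hours after withdrawal, with a point for each library and a line through the group means, for the 2i course (circles) and the 2iL course (triangles). Lef1 has its highest group mean at 36 h in the 2i course and at 48 h in the 2iL course, where 48 and 60 h overlap. In the 2i course Tcf7l1 ends lower than it began and Tcf7l2 climbs.

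Tested over all later times jointly, 8 of the 10 genes were called in the 2i course, where 52.3% of tested genes were, and 8 in the 2iL course, where 56.5% were. Nkd1 and Rnf43, called in both courses, could pass the filter on low counts through late groups in which they are high. Tcf7 was the gene called in neither. In the 2i course the other gene not called was Znrf3, and in the 2iL course it was Tcf7l2. The difference between the courses over the 6 shared times was called for 6 genes (Axin2, Sp5, Lef1, Tcf7l1, Tcf7l2 and Tnfrsf19), against 22.5% of tested genes. The courses differ in their starting medium and in nothing else that the labels name, and each difference is taken against 0 h of its own course.

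At 48 h, 1 gene was higher in the 2iL change than in the 2i change, Lef1 (log2 2.47 ± 0.29, edgeR adjusted p = 6.07e-07), and 1 lower, Tcf7l2 (-2.19 ± 0.42, 0.000697), where 5.54% and 3.64% of tested genes were. At 72 h the genes called lower were Axin2 (-2.85 ± 0.66, 0.00422), Tnfrsf19 (-2.40 ± 0.37, 3.15e-05), Tcf7l2 (-1.87 ± 0.42, 0.00298) and Sp5. Sp5 had 2 counts in 2iL against 34 in 2i at that time. Those called higher were Lef1 (3.12 ± 0.30, 6.86e-09) and Tcf7l1 (1.06 ± 0.25, 0.00464). The background at 72 h was 4.24% lower and 5.56% higher. At 84 h the call held for Lef1 (3.22 ± 0.30, 4.40e-09), Tcf7l2 (-2.31 ± 0.41, 0.000228) and Sp5 (1 count in 2iL, 39 in 2i), where 4.51% of tested genes were lower and 6.81% higher.

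Lef1 began lower and Tcf7l2 and Sp5 higher in 2iL, and these starting levels enter the differences. At 48 h itself the Lef1 levels overlapped, at 177 and 125 CPM in 2iL and 137 and 131 CPM in 2i, so the difference of 2.47 there is close in size to the 0 h gap of 2.29. At 72 h Lef1 stood at 109 and 118 CPM in 2iL and 59.6 and 68.5 CPM in 2i. Axin2 and Tnfrsf19 stood lower in 2iL at 72 h (1.22 and 3.59, and 7.75 and 8.22 CPM) than in 2i (25.2 and 13.4, and 65.1 and 60.3 CPM), from starting levels that were not called different. The Axin2 call at 72 h ended without 2iL 72 h replicate 1 (edgeR adjusted p = 0.0597) or 2i 72 h replicate 1 (0.0747), and its value was -3.73 without 2iL 72 h replicate 2. The Tcf7l2 call at 72 h ended without 2i 0 h replicate 1 (0.0523). Calls appeared for Axin2 at 48 h without 2i 48 h replicate 2 (-2.32, 0.0444) and for Tnfrsf19 at 84 h without 2iL 84 h replicate 1 (-1.17, 0.0411). At 84 h Tcf7l1 was at 0.73 ± 0.25 (0.0539), and it passed (0.82, 0.0103) once the 4 libraries named above were dropped.

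**Figure D4:**
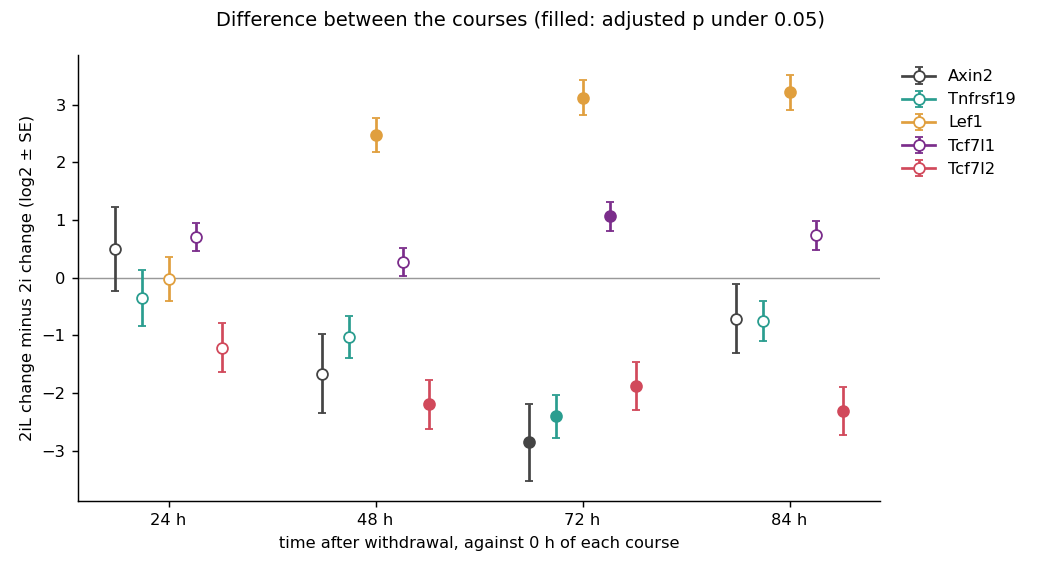
Change in the 2iL course minus change in the 2i course (log2 ± SE, each against 0 h of its course) for 5 genes at 4 shared times, with filled points for an edgeR adjusted p under 0.05. No point is filled at 24 h, Lef1 lies above 0 from 48 h on, and Axin2 and Tnfrsf19 are lowest at 72 h.

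Other genes of the pathway, 69 by name, were followed beside the 10, and 55 of them passed the filter on low counts. At 2i 12 h, 10 were lower and 4 higher, where 5.37% and 5.43% of all tested genes were. At 2iL 24 h 9 were lower and 7 higher, where 5.92% and 5.65% were. None of the 11 genes of beta-catenin and its destruction complex (Ctnnb1, Apc, Gsk3b and others) was called by edgeR or DESeq2 in either of these comparisons. At an unadjusted p under 0.05 there were 2 lower and 1 higher at 2i 12 h and 2 lower and 0 higher at 2iL 24 h. Of the 8 tested genes listed as other beta-catenin targets, Cdx2 and T were lower and Myc higher at 2i 12 h. At 2iL 24 h Cdx1 and T were lower and Ccnd1 and Myc higher. Cdx1, Cdx2, T and Myc had 3 counts or fewer in a group compared. Ccnd1 was at log2 0.61 (edgeR adjusted p = 0.0327). That call ended when the 2iL libraries were fitted by themselves (0.135) and without any of the 4 libraries compared (log2 0.50 to 0.68). Of 5 naive genes that TCF7L1 is known to repress, 4 were lower at both first times (Esrrb, Klf2, Nanog and Tfcp2l1) and 1 was higher (Nr0b1). Tfcp2l1 was at log2 -1.68 ± 0.21 at 2i 12 h (edgeR adjusted p = 1.6e-06) and -2.50 ± 0.21 at 2iL 24 h (5.9e-10). Klf2 was at -2.54 ± 0.24 and -1.19 ± 0.22, and Nanog at -1.62 ± 0.24 and -1.26 ± 0.24. Esrrb was at -1.40 ± 0.26 and -0.77 ± 0.24, and its call at 2iL 24 h (edgeR adjusted p = 0.0333) ended under DESeq2 (0.103) and without any of the 4 libraries compared (0.0996 to 0.150).

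Of the 5 naive genes, 4 differed between the courses at 24 h. The difference between courses was called higher for 7 pathway genes at 24 h and lower for 0 by edgeR, where 1.79% and 1.29% of all tested genes were. At an unadjusted p under 0.05 it was lower for 2, and DESeq2 called 0 lower. Of the 7, 4 were naive, among them Esrrb (log2 3.61 ± 0.40, edgeR adjusted p = 7.3e-07) and Nanog (3.43 ± 0.39, 8.3e-07). Esrrb was at 99.8 to 114 CPM at 2iL 24 h and at 4.90 to 7.16 CPM at 2i 24 h.

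Over the later 2i course (84 h against 24 h), 23 pathway genes were higher and 7 lower, where 22.1% and 20.1% of all tested genes were. Over the later 2iL course (96 h against 24 h) 12 were higher and 13 lower, where 20.5% and 20.1% were. Genes with few counts at 24 h could pass the filter through the late groups in which they are high, so these counts are a description. Wls, which carries Wnt proteins to the cell surface, rose in both. It stood at 2.94 to 4.29 CPM at 2i 24 h and 116 to 119 CPM at 84 h (log2 4.96 ± 0.37, edgeR adjusted p = 5.7e-12), and at 6.19 to 7.81 and 86.4 to 111 CPM at 2iL 24 and 96 h (3.83 ± 0.38, 3.3e-09). Of the 12 tested cofactors and corepressors of TCF, 5 were higher and 3 lower over the later 2i course. Over the later 2iL course 4 were higher and 2 lower. Those higher in the 2i course included the corepressor Tle3 (log2 1.27 ± 0.15, edgeR adjusted p = 9.7e-08) and Ctnnbip1 (0.70), and in the 2iL course Cby1 (1.02). The beta-catenin cofactors Bcl9 and Bcl9l rose in both courses, Bcl9l by log2 1.196 ± 0.23 and 1.94 ± 0.26 and Bcl9 by 1.04 ± 0.26 and 1.54 ± 0.30. The corepressor Tle4 fell in both (log2 -1.91 and -1.66). Aes, which lacks part of the TLE proteins and can oppose them, fell too (log2 -1.28 and -2.57), and the call in the 2i course ended without 2i 24 h replicate 2 (-0.94, 0.0572); in the 2iL course it was at -1.92 without 2iL 24 h replicate 1.

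The ligands had few counts. Wnt3, Wnt5b and Wnt5a were picked for description after their values were seen. Wnt3, which signals through beta-catenin, had 81 counts at 2i 0 h, 1 at 12 h (ratio 46.3, 95% counting interval 8.07 to 1850), 0 at 24 h and 65 at 84 h. In 2iL it had 19 counts at 0 h, 0 at 24 h and 8 at 96 h. Wnt5b had 82 counts at 2i 0 h, 5 at 12 h and 17 at 84 h. Wnt5a went the other way after withdrawal, from 3 counts at 2i 0 h to 9 at 12 h and 23 at 24 h (ratio 6.88 at 24 h, interval 2.08 to 35.8). In 2iL Wnt5a had 1 count at 0 h, 17 at 24 h and 7 at 96 h. There edgeR called it higher at 24 h and then lower at 96 h against 24 h. Rspo1, whose protein shields Frizzled receptors from RNF43 and ZNRF3, had 3 counts at 2iL 24 h and 53 at 96 h (ratio 9.96, interval 3.23 to 49.8). Its 3 counts at 24 h came from replicate 1, so the fitted log2 change of 3.23 became 7.69 without it and 2.42 without 2iL 24 h replicate 2, both called. In the 2i course Rspo1 had already reached 7.84 to 9.30 CPM at 24 h and stood at 16.9 to 19.4 CPM at 48 h.

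Ccnd1, encoding cyclin D1, a driver of the cell cycle and a known target, fell over the later 2iL course (log2 -2.11 ± 0.20, edgeR adjusted p = 1.4e-09), to 73.4 to 121 CPM at 96 h, and was at -0.16 ± 0.19 over the later 2i course (0.53), where it stood at 266 to 298 CPM at 84 h. Mycn, a MYC-family transcription factor, fell in both, by 1.13 (SE 0.26) and 1.79 (SE 0.29) on the log2 scale. Whether the late changes differ between courses was not tested for these genes.

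**Figure D5:**
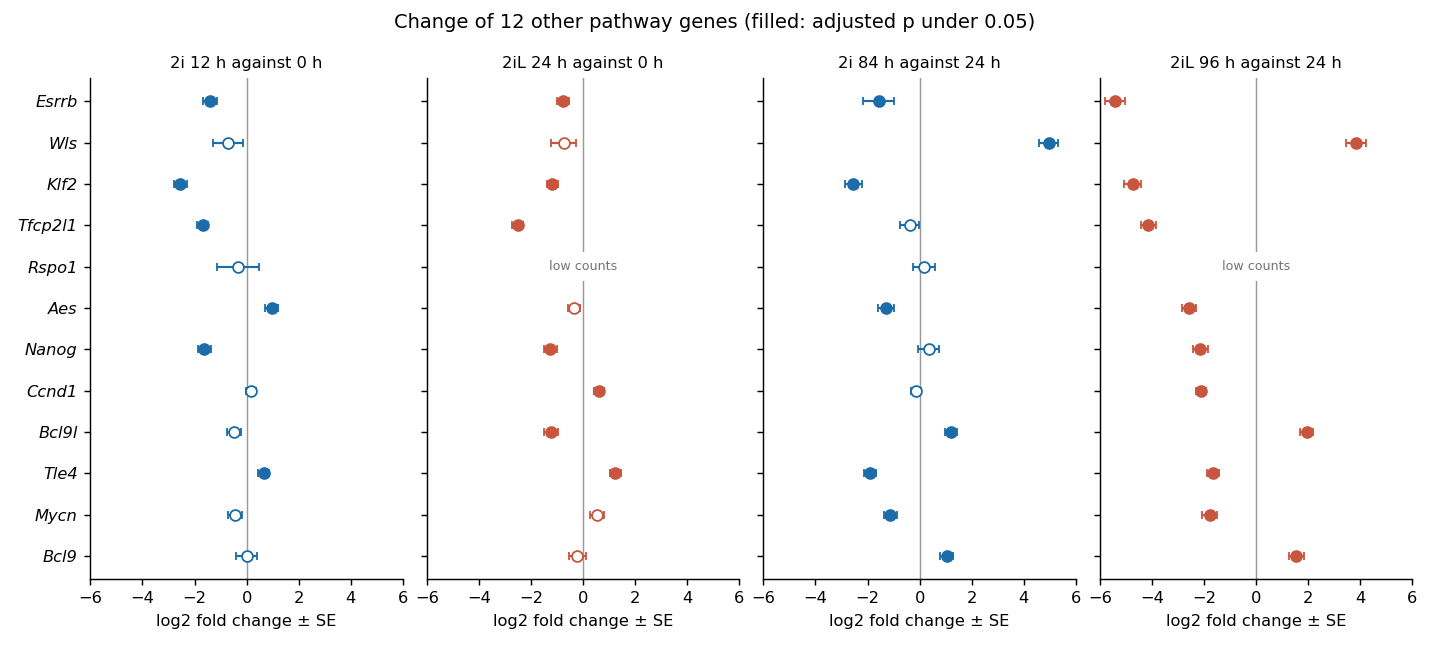
Log2 fold change ± SE of 12 other pathway genes in the same 4 comparisons (horizontal axis; blue for the 2i course, red for the 2iL course), with filled points for an edgeR adjusted p under 0.05 and "low counts" where a group held 3 counts or fewer. Esrrb, Klf2, Tfcp2l1 and Nanog are lower at the first time in both courses, and Wls, Bcl9l and Bcl9 are higher at the end of both.

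Across the 15 groups of 2 libraries, the group means of log2 CPM of Axin2 and Sp5 had a Pearson correlation of 0.902. Tnfrsf19 correlated with Axin2 at 0.707, with Nkd1 at 0.781 and with Rnf43 at 0.796. Lef1 correlated with Axin2 at -0.548 and with Sp5 at -0.669, and Nkd1 with Tcf7l1 at -0.927. Among 8646 other tested genes with a mean log2 CPM of at least 3, those most like Axin2 were Ttc28 (0.933), Prep (0.900) and Ntn1 (0.897). For Lef1 they were Plcxd1 (0.929), Cenps (0.928) and Vrtn (0.924), and for Tcf7l1 they were Plin3 (0.951), Ehd1 (0.947) and Cops6 (0.941). The genes compared were counted in the same libraries and so share their depth and the order of times. Sp5, Nkd1 and Rnf43 had few counts or none in many groups. Their log2 CPM there depends mostly on the prior count of 2 that is added before the logarithm. No test was made of these correlations.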

How the data were processed

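Poly(A) RNA was measured by 3′ digital sequencing in 32 libraries. Per the submitters' processing notes, reads were handled with bcl2fastq, STAR 2.6.0a and HTSeq on mm10. The annotation release and the strand setting are not given in the sources used here. The deposited values are the authors' raw read counts per gene, and rows that name no gene stayed out of library sizes and tests (reads outside genes were 23.4% to 55.4% of uniquely assigned, ambiguous and outside reads in the 31 libraries used). Gene names came from GENCODE M21, which matched 31011 of 31053 identifiers.

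Counts were tested with edgeR 4.0.16 in R 4.3.3 (TMM, filterByExpr, 1 coefficient per group, quasi-likelihood test), with Benjamini-Hochberg adjustment over 12556 genes and a threshold of 0.05. The SE is the size of the log2 fold change divided by the square root of F. Group sums of 3 counts or fewer are given as ratios with exact 95% Clopper-Pearson intervals or bounds, which cover counting error only. DESeq2 1.42.0, other scalings, filters and left-out libraries were alternatives. The code was tested on simulated data. The 12 other pathway genes with the largest change were named, among those called in a comparison and with a mean log2 CPM of at least 3; other names were chosen after their values were seen. Replicate numbers were not used to pair libraries, and the labels do not say that they do. Between groups, the deviations of the replicates correlated at -0.720 to 0.795 (median 0.024), and 24 of 105 correlations exceeded 0.1. Pairing in part of the series is not settled by this. The 10 genes and the lists were chosen with earlier results of these data known, and 2i 48 h against 36 h was added after the levels were seen.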

Additional observations from a re-analysis of the deposited data

Results flagged for a closer look

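These results differ between the courses by a test of the difference itself, the change in 2iL minus the change in 2i, each against 0 h of its course (edgeR, adjusted over all tested genes). At 48 h the difference was 2.469 (log2) for Lef1 and -2.195 for Tcf7l2. The Lef1 levels at 48 h overlapped between the courses (177 and 125 CPM in 2iL, 137 and 131 CPM in 2i), and the value is close to the 0 h gap of 2.29. At 72 h it was -2.85 for Axin2, -5.47 for Sp5, 3.124 for Lef1, 1.064 for Tcf7l1, -1.872 for Tcf7l2 and -2.397 for Tnfrsf19. At 84 h it was -6.107 for Sp5, 3.216 for Lef1 and -2.309 for Tcf7l2. Sp5 rests on 2 counts at 2iL 72 h and 1 count at 2iL 84 h, so its fitted values are no measure of size. The value at 84 h was -8.48 without 2iL 84 h replicate 1, -5.28 without 2iL 84 h replicate 2 and -5.30 once the 4 libraries named in the report were dropped, and each of these was called.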

How the results depend on the processing

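No called result changed direction under the alternatives run. Values that did not pass the test could change sign: without 2iL 96 h replicate 1 Axin2 at 96 h against 24 h went from -0.23 to 0.07, and without 2i 12 h replicate 1 Znrf3 at 12 h went from 0.42 to -1.96 (log2). Of the 10 genes, 2 were called lower at 0 h, and DESeq2 called 1. At 2iL 24 h 2 were called higher, and 1 in a fit of the course alone or with no filter on low counts. In the difference at 24 h 0 were called, and without the 4 libraries that stand apart 1 lower and 1 higher were. Without 1 library at a time, calls at 0 h were 0 to 1 lower and 1 to 1 higher. They were 1 to 2 lower and 0 to 1 higher at 2i 12 h, and 3 to 3 lower and 0 to 1 higher at 2iL 24 h. For 84 h against 24 h they were 2 to 2 lower and 4 to 6 higher in 2i, and 1 to 1 lower and 2 to 2 higher in 2iL. For 2iL 96 h against 24 h they were 1 to 1 lower and 0 to 3 higher, and for 2i 48 h against 36 h 0 to 1 higher. In the difference at 24 h they were 0 to 0 both ways. Over the 12 later times against 0 h, 34 calls lower became 28 to 36 and 24 higher became 22 to 25. In the differences at 48, 72 and 84 h, 7 lower became 6 to 8 and 4 higher became 4 to 5, and the joint difference 5 to 6. The joint tests gave 8 to 8 in 2i and 6 to 8 in 2iL, where 6 remained in number in the course alone and without the 4 libraries. With the replicate number as a block, the joint 2iL count was 7, Tcf7l1 was called in the difference at 84 h (0.74, edgeR adjusted p = 0.0478), and Tle4 was not at 2i 12 h (0.0520). The cause of these changes was not tested. The totals over the 12 later times count a gene once per time at which it is called. Of all tested genes, 5.22% to 20.1% were lower and 5.56% to 19.5% higher at any 1 of these times. Leaving out 1 library leaves 1 in its group. Fewer of all tested genes were then called too, at 0 h, 2i 12 h, 2iL 24 h and over the later courses. An ended call alone does not show that a gene depended on that library. 2iL 36 h has 1 library, which could not be left out, and counts under 3 in a library (0.872 to 2.67 CPM) limit Sp5, Nkd1 and Rnf43.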
